A study of Mus musculus with 23 samples.

Results

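Oncofetal genes are genes that the fetal liver uses, that are largely silenced after birth and that hepatocellular carcinomas often use again. Here 8 such genes were followed in mouse liver, namely *Afp*, *Gpc3*, *Igf2bp1*, *Igf2bp2*, *Igf2bp3*, *Lin28b*, *Hmga2* and *Hmga1*. They were chosen by name and matched on the gene symbol, and 8 of the 8 were found among the 27179 genes of the count table. *Afp* encodes alpha-fetoprotein, the fetal relative of albumin, and *Gpc3* encodes glypican 3, a heparan sulfate proteoglycan anchored to the cell surface. Both proteins serve as clinical markers of liver cancer. *Igf2bp1*, *Igf2bp2* and *Igf2bp3* encode RNA-binding proteins named after their binding to *Igf2* mRNA, *Lin28b* encodes an RNA-binding protein that blocks the maturation of let-7 microRNAs, and *Hmga1* and *Hmga2* encode architectural chromatin proteins that bind AT-rich DNA. In cells where let-7 is abundant, as in most adult tissues, it represses *Lin28b*, *Hmga2* and the *Igf2bp* genes.

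RNA came from livers of 15 female mice, taken where no tumor was visible. All of them carried the *Alb-Cre* transgene, in which the albumin promoter drives Cre recombinase in hepatocytes and other cells of the hepatoblast lineage, and all were *Trp53* flx/flx, so that both copies of *Trp53* are deleted where Cre acts. The 6 Ctrl mice had wild-type *Braf* and were *Icmt* flx/+. The 6 ABpIF/+ mice were also *Icmt* flx/+ and carried the conditional *Braf*CA/+ allele, which gives BRAFV600E after recombination. The 3 ABpIF/F mice carried the same *Braf* allele and were *Icmt* flx/flx. The genotype labels of both mutant groups write "BRAF +/+", while the design text gives *Braf*CA/+. Labels give no ages, and the ABpIF/F mice were of different ages per the study's text. It reports liver tumors in all 3 of them, with a burden that went with age, and AFP protein in the tumors. Of the study's ABpIF/+ mice only a minority had a visible liver tumor. Which ABpIF/F mouse had which age or burden is not given in the labels. Of the Ctrl mice only BG3 carries the strain label of the mutants, and the other 5 carry another one. The ABpIF/F group also differed in its clock genes, whose score was between 1.06 and 3.29 there, between -1.09 and -0.14 in ABpIF/+ and between -1.31 and -0.44 in Ctrl except for malpa387 at 2.32. Each mouse had between 24742910 and 32262649 counted reads. *Alb*, a defining hepatocyte gene, was between 76790 and 186400 CPM (counts scaled to the size of each library, with TMM factors) in every mouse. *Icmt* was between 27.8 and 34.7 CPM in Ctrl, between 27.8 and 37.4 in ABpIF/+ and between 15.2 and 16.6 in ABpIF/F livers.

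Of the 8 genes, 2 rose and 1 fell in ABpIF/+ vs Ctrl livers, where 10.0% of all genes were called, 4.69% up and 5.35% down. Calls required a change of at least 2-fold with the adjusted p below 0.01 (edgeR quasi-likelihood test, Benjamini-Hochberg over all genes). *Gpc3* rose most, from at most 39 reads in a Ctrl mouse, *Afp* rose less, and *Igf2bp2* fell. In ABpIF/F vs Ctrl livers *Gpc3* and *Afp* rose and no other member was called, with 6.93% of all genes called, 4.55% up and 2.38% down. Between ABpIF/+ and ABpIF/F livers 0 members were called, with 7.24% of all genes called, 1.76% up and 5.49% down. In that comparison 6 of the 8 had an unadjusted p under 0.05 by edgeR, and DESeq2 called 1 of them, *Igf2bp2*. The shares of all genes at that unadjusted p and by DESeq2 are not given, so these counts have no baseline. Among the 6 were *Lin28b*, from 9 reads against 0, and *Hmga2*, with 31 of its 38 ABpIF/F reads in BG38. Of the 8 genes, 4 had a mean of at least 1 CPM over the 15 mice (*Gpc3*, *Afp*, *Hmga1* and *Igf2bp2*). Among the 12316 genes at that level, 17.6%, 12.6% and 12.2% were called in these 3 comparisons.

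**Figure D1:**
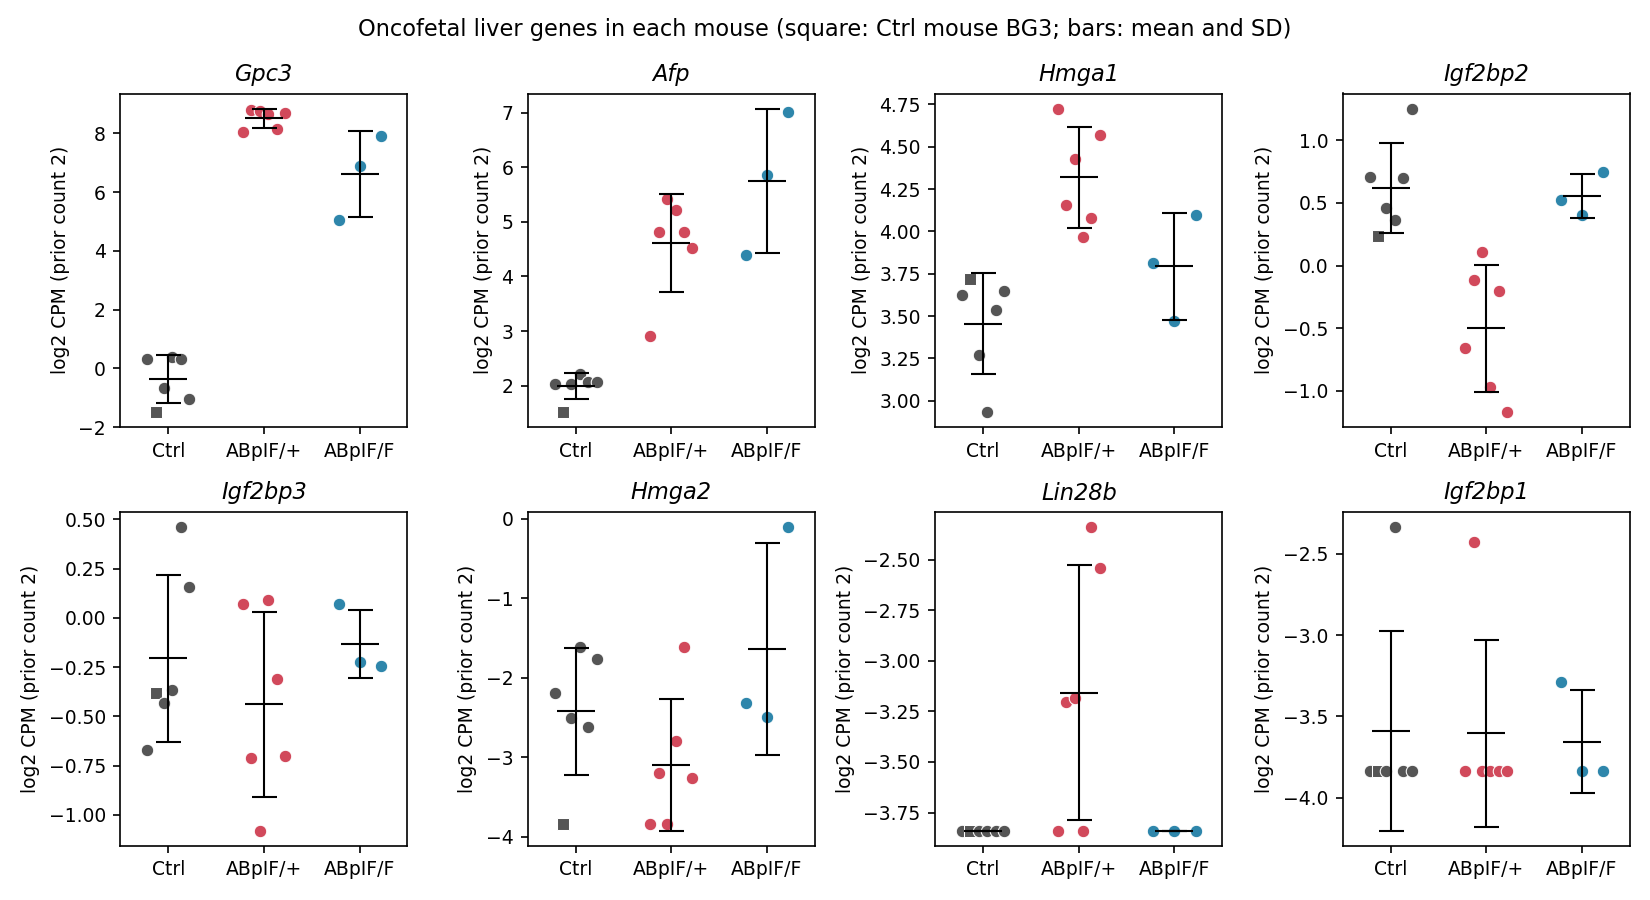
Log2 CPM of the 8 oncofetal genes (y axes, prior count of 2, each panel on its own scale) in each mouse of the 3 groups (x axes); points are mice, the square is the Ctrl mouse BG3, and bars give the mean and SD. The 6 ABpIF/+ mice lie above all 6 Ctrl mice for *Gpc3*, *Afp* and *Hmga1* and below them for *Igf2bp2*, while *Lin28b* and *Igf2bp1* rest on at most 4 reads in any mouse.

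*Gpc3* (Entrez 14734) lies on the minus strand of the X chromosome, from 52272426 to 52613950 of GRCm38. The glypican 3 core protein carries heparan sulfate chains and modulates growth factor signals such as those of the Wnt and Hedgehog families at the cell surface. The 250 bases before its RefSeq start are shown because this gene changed most. In capitals are matches to the SP1 motif GGGCGG, which all lie on the other strand and so read CCGCCC here.

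Gpc3, chrX:52613975-52614224, minus strand, GRCm38.p6: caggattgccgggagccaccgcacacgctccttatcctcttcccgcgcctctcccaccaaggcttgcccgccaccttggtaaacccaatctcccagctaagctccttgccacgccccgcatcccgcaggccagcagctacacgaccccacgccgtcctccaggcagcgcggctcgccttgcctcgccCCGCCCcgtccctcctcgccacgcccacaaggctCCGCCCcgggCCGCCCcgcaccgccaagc

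This stretch has no TATAAA. The window from 250 bases before to 50 after the start held 4 SP1 matches, 3 of them in the stretch shown, and a match to GGGCGG on either strand occurs in 35.658% of the 32851 mouse promoters of the same length in the table.

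In the Ctrl mice *Gpc3* had between 7 and 39 reads, which is between 0.287 and 1.25 CPM with a median of 0.873. In the ABpIF/+ mice it had between 7061 and 12058 reads, or between 266 and 444 CPM with a median of 407. The ABpIF/F mice BG183, BG90 and BG38 stood at 32.8, 117 and 242 CPM, from 1004, 3276 and 8728 reads. The 3 groups did not overlap, with Ctrl lowest, ABpIF/F between and ABpIF/+ highest. Of the 12316 genes, 15.5% were higher without overlap in ABpIF/+ than in Ctrl mice, and 15.1% in ABpIF/F than in Ctrl mice. The share with all 3 groups apart was not counted. In ABpIF/+ vs Ctrl livers the mean rose from 0.814 ± 0.441 to 372 ± 77.6 CPM (SD, n = 6 each), 457-fold, which is 8.80 on the log2 scale (SE, standard error of the log2 fold change, 0.56, adjusted p = 5.07e-08 by edgeR). By log2 fold change *Gpc3* ranked 8th of the 12316 genes. In ABpIF/F vs Ctrl livers the log2 fold change was 7.29 (SE 0.56, adjusted p = 7.95e-07 by edgeR), 160-fold in the means, and the rank was 10th. The ABpIF/F mean of 131 ± 105 CPM (SD, n = 3) rests on mice that differ widely, and without BG38 the log2 fold change was 6.49.

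*Gpc3* was 2.85-fold higher on average in ABpIF/+ than in ABpIF/F livers, a log2 fold change of 1.51 (SE 0.51), but the adjusted p was 0.0554 (edgeR) and the difference was not called. Every ABpIF/+ mouse was above every ABpIF/F mouse, as were 19.2% of the 12316 genes. The gap to the nearest mouse was small, from 242 CPM in BG38 to 266 in BG55. The Ctrl mouse BG3, which shares the strain label of the mutants, had the lowest *Gpc3* of its group at 0.287 CPM. With the strain label as a term, *Gpc3* was still called in both comparisons with Ctrl, at log2 fold changes of 10.32 and 8.81 (edgeR adjusted p = 0.000664 and 0.002).

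*Afp* (Entrez 11576) lies on the plus strand of chromosome 5, from 90490737 to 90508907, between *Alb* (90460897 to 90476602) and *Afm* (90518932 to 90553543). Alpha-fetoprotein is the main plasma protein of the fetus and its gene is shut off in hepatocytes soon after birth. The 250 bases before the RefSeq start are shown as the proximal promoter of a gene that rose in both mutant groups. In capitals are a match to GTTAAT, part of the site bound by the HNF1 factors, and a match to the TATA box letters TATAAA.

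Afp, chr5:90490464-90490713, plus strand, GRCm38.p6: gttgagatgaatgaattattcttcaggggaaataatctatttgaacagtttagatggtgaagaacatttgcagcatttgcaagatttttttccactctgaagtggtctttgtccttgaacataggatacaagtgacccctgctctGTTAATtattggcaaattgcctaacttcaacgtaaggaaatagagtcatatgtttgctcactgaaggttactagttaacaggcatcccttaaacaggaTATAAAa

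Their first bases lie at -128 and -30 from the start that GENCODE M21 gives, and at -105 and -7 from the RefSeq start. GTTAAT on either strand is in 7.099% and TATAAA in 13.616% of the 32851 promoters. The AP-1 motif TGANTCA, in 7.808% of promoters, was also searched and these letters are in neither the *Afp* nor the *Gpc3* window. The *Afp* window has no GGGCGG.

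In the Ctrl mice *Afp* had between 68 and 143 reads, or between 2.79 and 4.59 CPM with a median of 4.08. The ABpIF/+ mice were between 7.39 CPM, in BG55, and 42.6 CPM, with a median of 28.0. The ABpIF/F mice BG183, BG90 and BG38 had 20.9, 57.8 and 130.0 CPM. Every mutant mouse was above every Ctrl mouse, as in 15.5% of the 12316 genes for ABpIF/+ and 15.1% for ABpIF/F, and the 2 mutant groups overlapped. In ABpIF/+ vs Ctrl livers the mean rose 7.03-fold, from 3.94 ± 0.605 to 27.7 ± 12.2 CPM (SD, n = 6 each), with a log2 fold change of 2.81 (SE 0.46, adjusted p = 0.000434 by edgeR). In ABpIF/F vs Ctrl livers it rose 17.6-fold to 69.6 ± 55.5 CPM (SD, n = 3), with a log2 fold change of 4.14 (SE 0.52, adjusted p = 8.79e-05 by edgeR). *Afp* ranked 175th and 79th of the 12316 genes by log2 fold change. Without BG38 the log2 fold change in ABpIF/F vs Ctrl was 3.31 and still called. The difference between ABpIF/+ and ABpIF/F was -1.33 on the log2 scale (SE 0.49, adjusted p = 0.0846 by edgeR) and was not called. It was -0.50 without BG38.

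With the strain label as a term the *Afp* changes were 3.31 in ABpIF/+ vs Ctrl (edgeR adjusted p = 0.0815) and 4.64 in ABpIF/F vs Ctrl (edgeR adjusted p = 0.0304), larger in size but no longer called, since the contrast then rests on BG3 alone. BG3 had the lowest *Afp* of the 15 mice, at 2.79 CPM. With the clock score added to the model the change in ABpIF/F vs Ctrl was 4.09 (edgeR adjusted p = 0.0132).

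Per kilobase of exon the balance between both genes differed among the groups. In Ctrl livers *Afp* was at 1.17 ± 0.180 RPKM and *Gpc3* at 0.303 ± 0.164 RPKM (SD, n = 6). In ABpIF/+ livers *Afp* was at 8.23 ± 3.64 and *Gpc3* at 138 ± 28.8 RPKM (SD, n = 6), and in ABpIF/F livers they were at 20.7 ± 16.5 and 48.5 ± 39.1 RPKM (SD, n = 3). The ratio of *Gpc3* to *Afp* RPKM was between 0.124 and 0.371 in the Ctrl mice and between 12.6 and 45.1 in the ABpIF/+ mice. It was 1.96, 2.54 and 2.33 in the ABpIF/F mice BG183, BG90 and BG38, whose *Afp* level itself spanned from 6.20 to 38.6 RPKM. The 3 groups did not overlap in this ratio, which was formed after its parts had been seen and is given with no test. BG55, with the lowest *Afp* of the ABpIF/+ mice, also had their lowest *Gpc3*, and in the ABpIF/F mice both genes had the order BG183, BG90, BG38. Over the 15 mice Pearson's r of their log2 CPM was 0.86, and 0.70 for deviations from the group means. These values are descriptions over mice that fall into 3 groups and share the same library scaling.

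**Figure D2:**
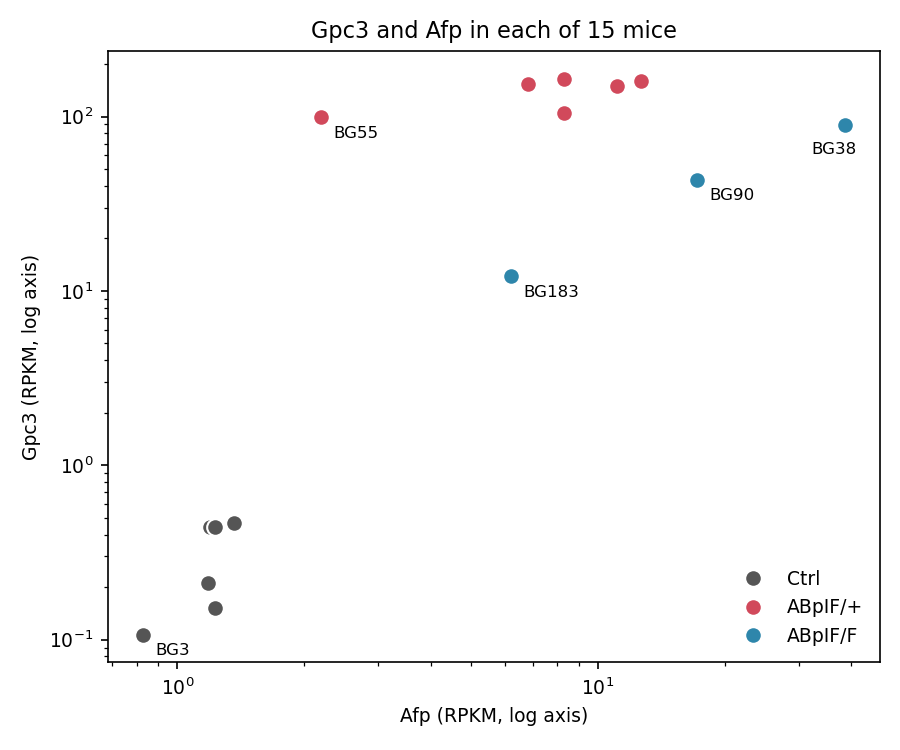
*Gpc3* (y axis) against *Afp* (x axis) in RPKM on log axes, with 1 point for each of the 15 mice colored by group. The Ctrl mice lie at the lower left, the ABpIF/+ mice along the top, and the 3 ABpIF/F mice below them on a rising line, with *Gpc3* between 1.96 and 2.54 times *Afp*.

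Of the neighbors of *Afp* in the genome, *Alb* and *Afm* shifted in opposite directions in ABpIF/+ vs Ctrl livers by less than 2-fold. *Alb* was higher in all 6 ABpIF/+ mice than in every Ctrl mouse (log2 fold change 0.79, edgeR adjusted p = 0.00168), as were 15.5% of the 12316 genes. *Afm* was lower in all 6 (-0.87, edgeR adjusted p = 0.000959), as were 15.8%. Of *Alb*, *Afm* and *Gc*, none was called in ABpIF/+ vs Ctrl or in ABpIF/F vs Ctrl livers, where the median log2 fold changes of the 3 genes were 0.15 and 0.25. At an unadjusted p under 0.05 edgeR had 2 and 1 of them, and DESeq2 called 0. *Afm*, which encodes afamin, a vitamin E-binding relative of albumin, was lower in ABpIF/+ than in ABpIF/F livers (192 against 417 CPM, log2 fold change -1.12, edgeR adjusted p = 0.000836). *Alb* was at 153783 and 144110 CPM in these groups, which overlapped (log2 fold change 0.09, SE 0.22, edgeR adjusted p = 1.0). Of 16 transcription factors known to act on *Afp*, 1 rose and 1 fell in each comparison with Ctrl, and the median log2 fold changes were -0.18 and -0.09. *Onecut2*, a homeobox factor of the developing liver, fell from 121 to 32.1 CPM (-1.92, edgeR adjusted p = 2.32e-06) and to 39.5 CPM (-1.62, edgeR adjusted p = 0.0004). *Zhx2*, the gene behind the known strain difference in adult *Afp* levels, was between 14.1 and 20.5 CPM in Ctrl and between 15.0 and 19.4 in ABpIF/+ mice (log2 fold change -0.05, SE 0.11, edgeR adjusted p = 0.991). *Zbtb20*, a repressor of *Afp* in the adult liver, was at 7.40 CPM in Ctrl, 5.67 in ABpIF/+ and 4.09 in ABpIF/F livers. Its log2 fold change of -0.86 in ABpIF/F vs Ctrl had an adjusted p of 0.00595 (edgeR) but was under 2-fold, and every ABpIF/F mouse was below every Ctrl mouse, as were 16.5% of the 12316 genes. *Zhx2* and *Zbtb20*, like *Gpc4*, *Dicer1* and *Tut7* further on, were picked for their known role with their values seen.

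Among 16 other genes of glypicans and heparan sulfate, 1 rose and 4 fell in ABpIF/+ vs Ctrl livers and the median log2 fold change was 0.01. In ABpIF/F vs Ctrl livers 2 rose and 1 fell. *Gpc6*, another glypican, rose from 1.92 to 20.1 CPM in ABpIF/+ (log2 fold change 3.39, edgeR adjusted p = 2.68e-12) and to 10.6 CPM in ABpIF/F livers (2.46, edgeR adjusted p = 5.62e-09). Its 6 ABpIF/+ mice, between 13.9 and 22.0 CPM, were above the ABpIF/F mice at 7.96, 10.7 and 13.1 CPM, as in 19.2% of the 12316 genes. The order of groups was the same as for *Gpc3*. *Gpc1* fell from 3.28 to 0.806 CPM in ABpIF/+ livers (-2.02, edgeR adjusted p = 6.25e-06) and was at 3.17 CPM in ABpIF/F livers (-0.05, edgeR adjusted p = 1.0). *Gpc4*, the glypican with the highest CPM in Ctrl livers, was at 48.2, 53.6 and 69.0 CPM in Ctrl, ABpIF/+ and ABpIF/F livers and was not called. *Sulf2*, a sulfatase that trims heparan sulfate outside the cell, fell from 23.8 to 2.37 CPM in ABpIF/+ (-3.33, edgeR adjusted p = 4.44e-10) and to 4.19 CPM in ABpIF/F livers (-2.50, edgeR adjusted p = 1.30e-06). *Notum*, a secreted enzyme that inactivates Wnt proteins and can release glypicans, fell from 52.4 to 14.7 CPM in ABpIF/+ livers (-1.83, edgeR adjusted p = 5.74e-05).

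The genes most like *Gpc3* over the 15 mice by Pearson's r of log2 CPM, among the 12316 genes, were *Tmem71* (r = 0.99), *Cacna1b* (0.99) and *Miox* (0.99). For deviations from the group means r was 0.82, 0.67 and 0.68. *Tmem71* encodes a transmembrane protein, *Cacna1b* a neuronal calcium channel subunit and *Miox* the kidney enzyme that oxidizes inositol. *Miox* had at most 10 reads in any Ctrl mouse and was between 21.5 and 29.9 CPM in ABpIF/+ mice, with 9.20, 12.8 and 13.2 CPM in the ABpIF/F mice. The genes most like *Afp* were *Thsd4* (r = 0.97), *B4galt6* (0.96) and *Tnfrsf21* (0.95), with 0.83, 0.77 and 0.77 for deviations from the group means. *Thsd4*, an extracellular matrix gene, was between 0.777 and 1.24 CPM in Ctrl and between 3.06 and 10.2 CPM in ABpIF/+ mice, and at 5.38, 22.1 and 20.4 CPM in the ABpIF/F mice BG183, BG90 and BG38. *Miox* was highest in the ABpIF/+ mice, like *Gpc3*, and *Thsd4* in 2 of the ABpIF/F mice, like *Afp*. Both were picked for their correlation with these members over the same mice, so this likeness follows from the choice.

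*Hmga1* (Entrez 15361) lies on the plus strand of chromosome 17, from 27556497 to 27563674. It was at 11.1 ± 2.11 CPM in Ctrl, 20.3 ± 4.25 in ABpIF/+ (SD, n = 6 each) and 14.0 ± 3.03 CPM in ABpIF/F livers (SD, n = 3). The Ctrl mice were between 7.57 and 13.1 CPM with a median of 11.9, and the ABpIF/+ mice between 15.5 and 26.4 CPM with a median of 19.6, so that these groups did not overlap, like 15.5% of the 12316 genes that were higher in the same way. The 3 ABpIF/F mice, at 14.0, 11.0 and 17.1 CPM, overlapped both. The log2 fold change in ABpIF/+ vs Ctrl livers was 0.87 (SE 0.16, adjusted p = 0.000159 by edgeR), which is 1.83-fold and under the 2-fold threshold. It was 0.34 in ABpIF/F vs Ctrl (edgeR adjusted p = 0.27) and 0.53 in ABpIF/+ vs ABpIF/F (edgeR adjusted p = 0.0609). Reads of *Hmga1* can fall on its near-identical copy *Hmga1b*, whose means were 1.15, 1.75 and 1.57 CPM. Of 8 other HMG genes, including that copy, 0 rose and 1 fell in ABpIF/+ vs Ctrl and 0 were called in ABpIF/F vs Ctrl livers by edgeR or DESeq2, where 3 had an unadjusted p under 0.05. *Hmgn5*, a nucleosome-binding protein gene, was higher in ABpIF/+ than in ABpIF/F livers, at 48.8 against 23.5 CPM (log2 fold change 1.05, edgeR adjusted p = 4.79e-05). The genes most like *Hmga1* were *Rbm22* (r = 0.95), *Ifrd1* (0.94) and *Pvr* (0.93), and for deviations from the group means r was 0.85, 0.84 and 0.83.

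*Hmga2* (Entrez 15364, chromosome 10, 120361275 to 120476469, minus strand) was close to the limit of detection. It had between 0 and 8 reads in each Ctrl and in each ABpIF/+ mouse, and 4, 3 and 31 reads in the ABpIF/F mice BG183, BG90 and BG38. BG38 stood apart at 0.859 CPM, against at most 0.257 CPM in any of the other 14 mice. The log2 fold change in ABpIF/F vs Ctrl livers was 1.38 (SE 0.88, adjusted p = 0.366 by edgeR), and it turned to -0.22 without BG38. It was -0.95 in ABpIF/+ vs Ctrl (edgeR adjusted p = 0.528). BG38 was also the mouse with the most reads on *Lin28a*, 11, where the other 14 mice had at most 4.

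The *Igf2bp* genes, *Lin28b* and *Hmga2* share a feature that was not used to choose them, matches to the let-7 seed in their 3′ UTRs. The let-7 family has 10 mature mouse names with the seed GAGGUAG, of which 3 are printed to show what they share, from RefSeq, with the seed (bases 2 to 8) in capitals.

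mmu-let-7a-5p: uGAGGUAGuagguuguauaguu

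mmu-let-7b-5p: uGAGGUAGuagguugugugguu

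mmu-miR-98-5p: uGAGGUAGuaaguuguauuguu

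The complement of this seed, CTACCTC on the sense strand, was counted in the longest annotated 3′ UTR of each gene. *Igf2bp1*, *Lin28b* and *Hmga2* had 4 each, *Igf2bp2*, *Igf2bp3* and *Hmga1* had 1 each, and *Afp* and *Gpc3* had 0. One site of each of the 6 genes is shown with 12 bases before and 6 after it, the seed match in capitals, on GRCm38.

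Igf2bp1, chr11:95959352-95959376, minus strand: cagtgctattaaCTACCTCagcccc

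Lin28b, chr10:45381017-45381041, minus strand: cgggcgggaagtCTACCTCatgcaa

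Hmga2, chr10:120364219-120364243, minus strand: gacattcaatttCTACCTCagcatc

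Igf2bp2, chr16:22059468-22059492, minus strand: cacaaataaaagCTACCTCaggtgt

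Igf2bp3, chr6:49086782-49086806, minus strand: atttttactcaaCTACCTCaggtat

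Hmga1, chr17:27563280-27563304, plus strand: tctgttcacaaaCTACCTCtggacg

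Over 21037 genes with an annotated 3′ UTR, 9.022% had such a match. Among genes with a 3′ UTR of like length the share was 30.987% for *Igf2bp1*, 22.588% for *Lin28b*, 16.589% for *Hmga2*, 12.909% for *Igf2bp3*, 11.712% for *Igf2bp2* and 8.755% for *Hmga1*. For the short 3′ UTRs of *Gpc3* and *Afp*, of 441 and 201 bases, it was 3.511% and 1.517%. The 2 members that rose in both mutant groups hold no seed match. Of the 6 that hold one, *Igf2bp2* fell in ABpIF/+ vs Ctrl livers, *Hmga1* passed the adjusted p there at under 2-fold, and *Lin28b* had an adjusted p of 0.0442 there (edgeR) from 9 reads against 0. The libraries were made from polyadenylated RNA, and mature let-7 was not measured.

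*Igf2bp2* (Entrez 319765, chromosome 16, 22059009 to 22163299, minus strand) moved the other way from *Gpc3*. The Ctrl mice had between 27 and 62 reads, or between 1.11 and 2.31 CPM with a median of 1.43. The ABpIF/+ mice had between 11 and 25 reads, or between 0.375 and 1.01 CPM with a median of 0.683. The ABpIF/F mice BG183, BG90 and BG38 were at 1.37, 1.25 and 1.61 CPM. Every ABpIF/+ mouse was below every mouse of the other 2 groups, as were 15.8% of the 12316 genes against Ctrl and 14.9% against ABpIF/F. The log2 fold change was -1.16 in ABpIF/+ vs Ctrl livers (SE 0.30, adjusted p = 0.0046 by edgeR), from 1.51 ± 0.433 to 0.674 ± 0.250 CPM (SD, n = 6 each). This call was lost without any one of the mice malpa459, malpa462, BG55, BG88 and BG30, where the adjusted p was between 0.01 and 0.0196, and with the strain label as a term the change was -0.72 (edgeR adjusted p = 0.558). In ABpIF/+ vs ABpIF/F livers it was -1.07 (SE 0.35, adjusted p = 0.0352 by edgeR), not called by edgeR and called by DESeq2 (adjusted p = 0.00608). In ABpIF/F vs Ctrl it was -0.10 (SE 0.35, adjusted p = 1.0 by edgeR).

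*Igf2bp2* was lower in the same livers as many markers of stellate cells, fibroblasts and macrophages. The genes most like it over the 15 mice were *Kif11*, a mitotic kinesin (r = 0.90), *Sema3d*, a secreted semaphorin (0.90), and *Nid2*, a basement membrane protein (0.89), with 0.66, 0.68 and 0.62 for deviations from the group means. Of 9 markers of stellate cells and fibroblasts, 6 fell in ABpIF/+ vs Ctrl livers and none rose, with a median log2 fold change of -1.55, and of 6 macrophage markers 3 fell and none rose. Other cell types did not all follow. There, 2 of 6 endothelial and 3 of 7 lymphocyte markers fell. By contrast, 1 of 6 neutrophil and 1 of 6 erythroid markers rose and none fell, and 2 of 8 cholangiocyte markers rose and 1 fell. The summed CPM of the stellate cell and fibroblast markers was between 190.5 and 259.8 in Ctrl, between 60.2 and 127.1 in ABpIF/+ and between 221.4 and 345.3 in ABpIF/F mice. In RNA of a whole tissue, fewer cells of a type and less RNA per cell cannot be told apart, and the part of these cells in the *Igf2bp2* values was not tested.

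*Igf2bp3* (Entrez 140488, chromosome 6, 49085223 to 49214957, minus strand) had between 10 and 42 reads in every mouse and its groups overlapped, at 0.830 ± 0.284 CPM in Ctrl, 0.700 ± 0.247 in ABpIF/+ (SD, n = 6 each) and 0.847 ± 0.115 CPM in ABpIF/F livers (SD, n = 3). Its log2 fold changes from Ctrl were -0.25 (SE 0.32, adjusted p = 0.771 by edgeR) and 0.02 (SE 0.39, adjusted p = 1.0 by edgeR). *Igf2bp1* (Entrez 140486, chromosome 11, 95957163 to 96005940, minus strand) was nearly silent, with 4 reads in the Ctrl mouse malpa458, 3 in the ABpIF/+ mouse BG40, 1 in the ABpIF/F mouse BG183 and 0 in the other 12 mice. *Lin28b* (Entrez 380669, chromosome 10, 45376620 to 45486395, minus strand) had 0 reads in all Ctrl and all ABpIF/F mice. In the ABpIF/+ mice BG175, BG30, BG31 and BG40 it had 4, 3, 1 and 1 reads and in the other two 0. A count of 0 allows up to 3 reads, which is between 0.0831 and 0.123 CPM in these mice, so that lower levels of *Igf2bp1* and *Lin28b* were not detectable at this depth, and counting error is all that this limit covers. No fold change is given for either gene.

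Of 10 genes of LIN28 and let-7 processing, 0 were called in any of the 3 comparisons by edgeR or DESeq2. At an unadjusted p under 0.05 there were 3 in each comparison with Ctrl and 1 in ABpIF/+ vs ABpIF/F. The median log2 fold changes were -0.20 in ABpIF/+ vs Ctrl and -0.04 in ABpIF/F vs Ctrl, or -0.04 and -0.02 with the 2 genes at or under 3 reads in a whole group taken at that floor. *Dicer1*, which cuts the let-7 hairpin, was at 45.7, 50.7 and 44.6 CPM in Ctrl, ABpIF/+ and ABpIF/F livers, and *Tut7*, a terminal uridylase, at 70.9, 42.4 and 66.9 CPM (log2 fold change in ABpIF/+ vs Ctrl -0.74, edgeR adjusted p = 0.00051, under 2-fold). Of 18 other known let-7 targets, 1 rose and 2 fell in ABpIF/+ vs Ctrl and 1 rose and 1 fell in ABpIF/F vs Ctrl livers, and the medians were -0.07 and 0.08. *Ccnd1*, which encodes cyclin D1, fell from 140 to 7.52 CPM in ABpIF/+ livers (-4.22, edgeR adjusted p = 1.91e-08) and to 37.9 CPM in ABpIF/F livers (-1.89, edgeR adjusted p = 0.000768). *Ccnd2*, which encodes cyclin D2, fell from 10.5 to 3.00 CPM in ABpIF/+ livers (-1.80, edgeR adjusted p = 0.000141). *Myc* rose from 3.53 to 20.1 CPM in ABpIF/+ livers (2.51, edgeR adjusted p = 0.00108), with all 6 mice above every Ctrl mouse, as in 15.5% of the 12316 genes. *Igf1r*, the receptor for IGF1 and IGF2, rose from 2.67 to 7.85 CPM in ABpIF/F livers (1.56, edgeR adjusted p = 0.00144).

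**Figure D3:**
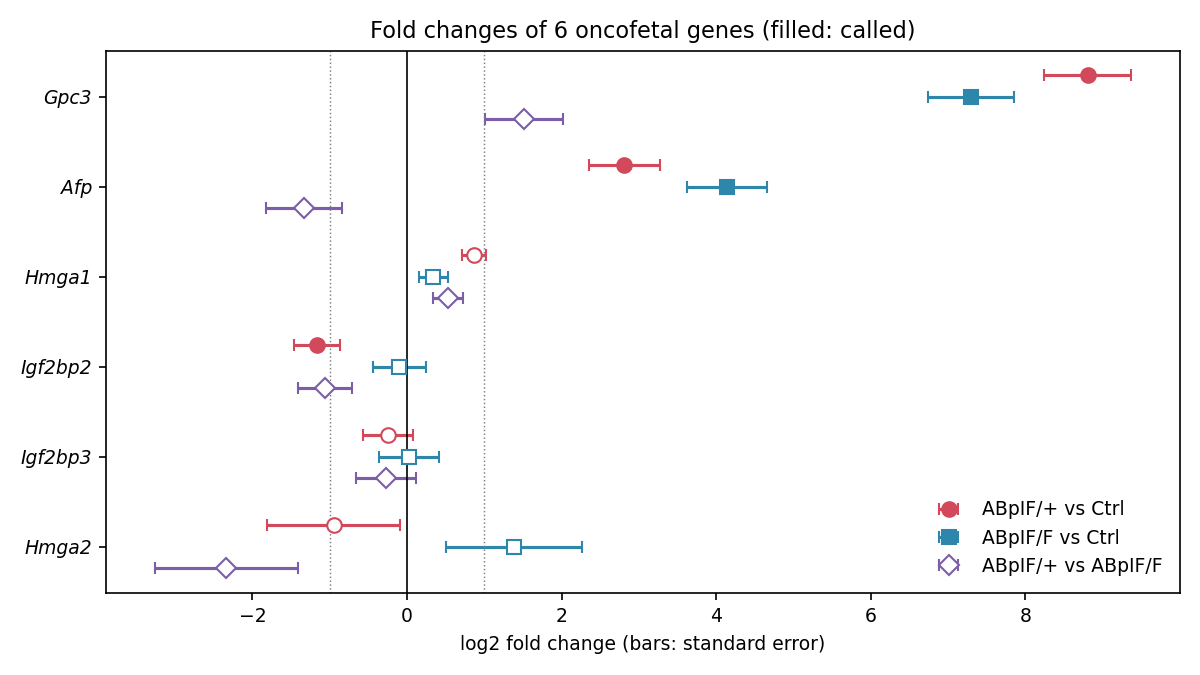
Log2 fold changes (x axis, bars give the standard error) of the 6 members with more than 3 reads on average in some group (y axis), in the 3 comparisons; filled symbols are called and dotted lines mark a 2-fold change. *Gpc3* and *Afp* are filled in both comparisons with Ctrl, *Igf2bp2* only in ABpIF/+ vs Ctrl, and no symbol is filled for ABpIF/+ vs ABpIF/F.

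Genes with a like history, imprinted and fetal growth genes that fall after birth, rose in part with *Gpc3* and *Afp*. Of 9 such genes, 5 rose and 1 fell in ABpIF/+ vs Ctrl livers, and 5 rose and none fell in ABpIF/F vs Ctrl livers, with median log2 fold changes of 1.94 and 1.52, where the median of all genes was 0.00. *Dlk1* had at most 3 reads in any Ctrl mouse, and with this gene taken at 3 counts in Ctrl the first median was 1.32. The gene that fell was *Ndn*, from 0.681 to 0.149 CPM (log2 fold change -2.14, edgeR adjusted p = 0.00467). *Mest* (-0.76) and *Plagl1* (-1.47) were also lower in ABpIF/+ than in Ctrl livers and were not called. *H19*, an imprinted noncoding RNA of the fetal liver, was between 0.492 and 2.24 CPM in Ctrl and between 55.3 and 202.9 CPM in ABpIF/+ mice, and at 121, 113 and 205.0 CPM in the ABpIF/F mice BG183, BG90 and BG38. Its log2 fold changes from Ctrl were 6.71 (SE 0.44, adjusted p = 5.52e-08 by edgeR) and 6.90 (SE 0.46, adjusted p = 1.85e-07 by edgeR), and the mutant groups did not differ beyond their spread (-0.19, SE 0.40, edgeR adjusted p = 1.0).

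*Igf2*, the fetal growth factor whose gene neighbors *H19*, was between 0.447 and 1.31 CPM in Ctrl and between 1.94 and 9.09 CPM in ABpIF/+ mice (log2 fold change 2.38, edgeR adjusted p = 0.0123, not called). In the ABpIF/F mice BG183, BG90 and BG38 it was at 3.95, 12.8 and 59.2 CPM, in the same order as *Afp* and *Gpc3*, and rose (4.89, edgeR adjusted p = 0.000259). *Dlk1*, a membrane protein of fetal hepatoblasts, was between 0.0806 and 0.658 CPM in ABpIF/+ mice and at 1.76, 2.82 and 1.80 CPM in ABpIF/F mice. It passed the test in both comparisons with Ctrl, although the ABpIF/+ mice overlapped the Ctrl mice, which were between 0 and 0.0962 CPM. It was lower in ABpIF/+ than in ABpIF/F livers (log2 fold change -2.97, SE 0.52, edgeR adjusted p = 0.000299). *Peg3*, a paternally expressed zinc finger gene, was between 1.85 and 8.77 CPM in Ctrl and between 40.9 and 89.8 CPM in ABpIF/+ mice (3.50, edgeR adjusted p = 0.000153). In the ABpIF/F mice it was at 6.56, 11.5 and 47.5 CPM (1.81, edgeR adjusted p = 0.0374, not called). *Peg3* thus had its highest mean in ABpIF/+ livers, and *Igf2* and *Dlk1* had theirs in ABpIF/F livers. Between the mutant groups 2 of the 9 genes were called, *Dlk1* and *Plagl1*, both lower in ABpIF/+ livers. *Plagl1* was at 0.376 against 1.70 CPM (log2 fold change -2.14, edgeR adjusted p = 0.00578). *H19* overlapped between these groups.

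**Figure D4:**
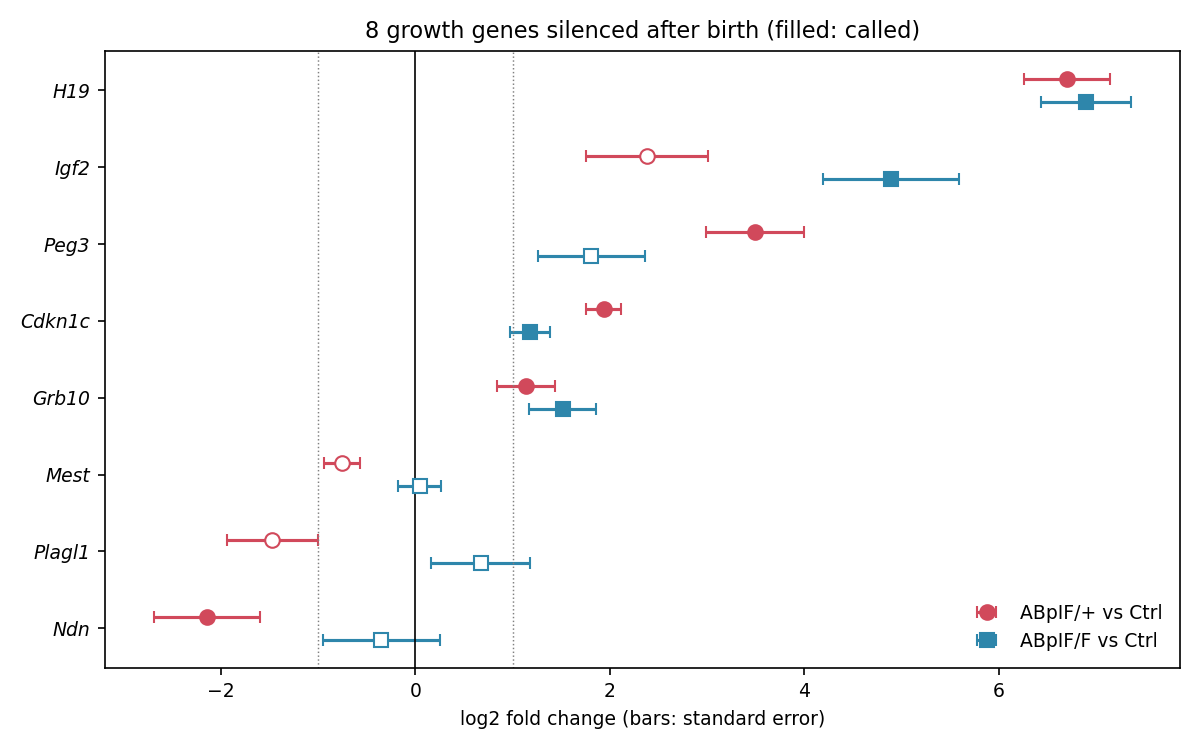
Log2 fold changes (x axis, bars give the standard error) of 8 imprinted and fetal growth genes (y axis) in ABpIF/+ vs Ctrl and ABpIF/F vs Ctrl; filled symbols are called and dotted lines mark a 2-fold change. *H19*, *Cdkn1c* and *Grb10* are filled as higher in both comparisons. *Peg3* (higher) and *Ndn* (lower) are filled in ABpIF/+ vs Ctrl and *Igf2* (higher) in ABpIF/F vs Ctrl. *Dlk1*, at 3 reads or fewer in every Ctrl mouse, is not drawn.

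Of 6 transcripts known to be bound by IGF2BP proteins, 2 rose (*H19* and *Myc*) and 1 fell in ABpIF/+ vs Ctrl livers and 2 rose (*H19* and *Igf2*) in ABpIF/F vs Ctrl livers, with medians of 1.18 and 0.99. The one that fell was *Cd44*, an adhesion receptor, from 8.27 to 3.30 CPM (log2 fold change -1.32, edgeR adjusted p = 0.00371). None of the 3 *Igf2bp* genes rose in the same livers.

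Among other markers of liver progenitors and carcinomas, more genes rose in ABpIF/F than in ABpIF/+ livers. Of 17 genes, 4 rose and 3 fell in ABpIF/+ vs Ctrl, 10 rose and none fell in ABpIF/F vs Ctrl, and 9 were lower and none higher in ABpIF/+ than in ABpIF/F livers, with medians of 0.36, 1.93 and -1.57. The first median was 0.06 with 2 genes at or under 3 reads in a whole group taken at that floor. The 3 that fell in ABpIF/+ vs Ctrl were *Lgr5* (log2 fold change -2.78), *Cd44* (-1.32) and *Krt19* (-1.21). *Lgr5* was also lower in ABpIF/F than in Ctrl livers (-2.09, edgeR adjusted p = 0.027, not called). *Tspan8*, a tetraspanin, rose from 0.793 to 3.44 CPM in ABpIF/+ (2.13, edgeR adjusted p = 0.00589) and was at 8.68, 32.5 and 61.6 CPM in the ABpIF/F mice BG183, BG90 and BG38 (5.44, edgeR adjusted p = 1.24e-05). *Spp1*, which encodes osteopontin, was at 43.8 CPM in Ctrl and 66.9 in ABpIF/+ livers (0.61, edgeR adjusted p = 0.482), and at 175, 724 and 1081 CPM in these ABpIF/F mice (3.91, edgeR adjusted p = 0.000375). *Scd2*, a fatty acid desaturase gene, rose in both groups, from 6.77 to 116 CPM in ABpIF/+ (4.10, edgeR adjusted p = 3.52e-08) and 81.7 CPM in ABpIF/F livers (3.59, edgeR adjusted p = 8.52e-07). *Spink1*, a secreted trypsin inhibitor gene, rose from 0.0488 to 1.72 CPM in ABpIF/F livers (5.06, edgeR adjusted p = 0.00263), with 3.79 CPM in BG38 and 0.326 in BG183.

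Markers of other cell types changed alongside. Of 8 cholangiocyte markers, which share *Epcam*, *Krt19*, *Krt7*, *Sox9* and *Spp1* with the list of progenitor and carcinoma markers, 6 rose in ABpIF/F vs Ctrl livers and 2 rose and 1 fell in ABpIF/+ vs Ctrl livers. Their summed CPM was between 49.4 and 88.4 in Ctrl and between 54.9 and 175.8 in ABpIF/+ mice, where BG55 was lowest, and 237, 815 and 1198 in BG183, BG90 and BG38. The sum of 6 neutrophil markers was 2.15, 24.5 and 68.3 CPM in these 3 mice, against at most 1.93 in Ctrl and 6.96 in ABpIF/+ mice, and 5 of the 6 rose in ABpIF/F vs Ctrl. Both sums had the order of *Afp* and *Gpc3* over the ABpIF/F mice, but this order was not particular to them. The sums of macrophage and erythroid markers and of proliferation genes had it too. Those of stellate cell and fibroblast, endothelial and lymphocyte markers did not. The sum of 13 adult hepatocyte genes had the reverse order, at 36520, 34640 and 22880 CPM, and 1 of them rose and 8 fell in ABpIF/F vs Ctrl livers, against 2 that rose and 3 that fell in ABpIF/+ vs Ctrl. *Cyp7a1*, the rate-limiting enzyme of bile acid synthesis, fell from 294 CPM in Ctrl to 47.6 in ABpIF/+ and 8.62 in ABpIF/F livers (log2 fold changes -2.63 and -5.09, edgeR adjusted p = 0.00344 and 0.00111). The part of these cells in the *Afp* and *Gpc3* values was not tested.

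**Figure D5:**
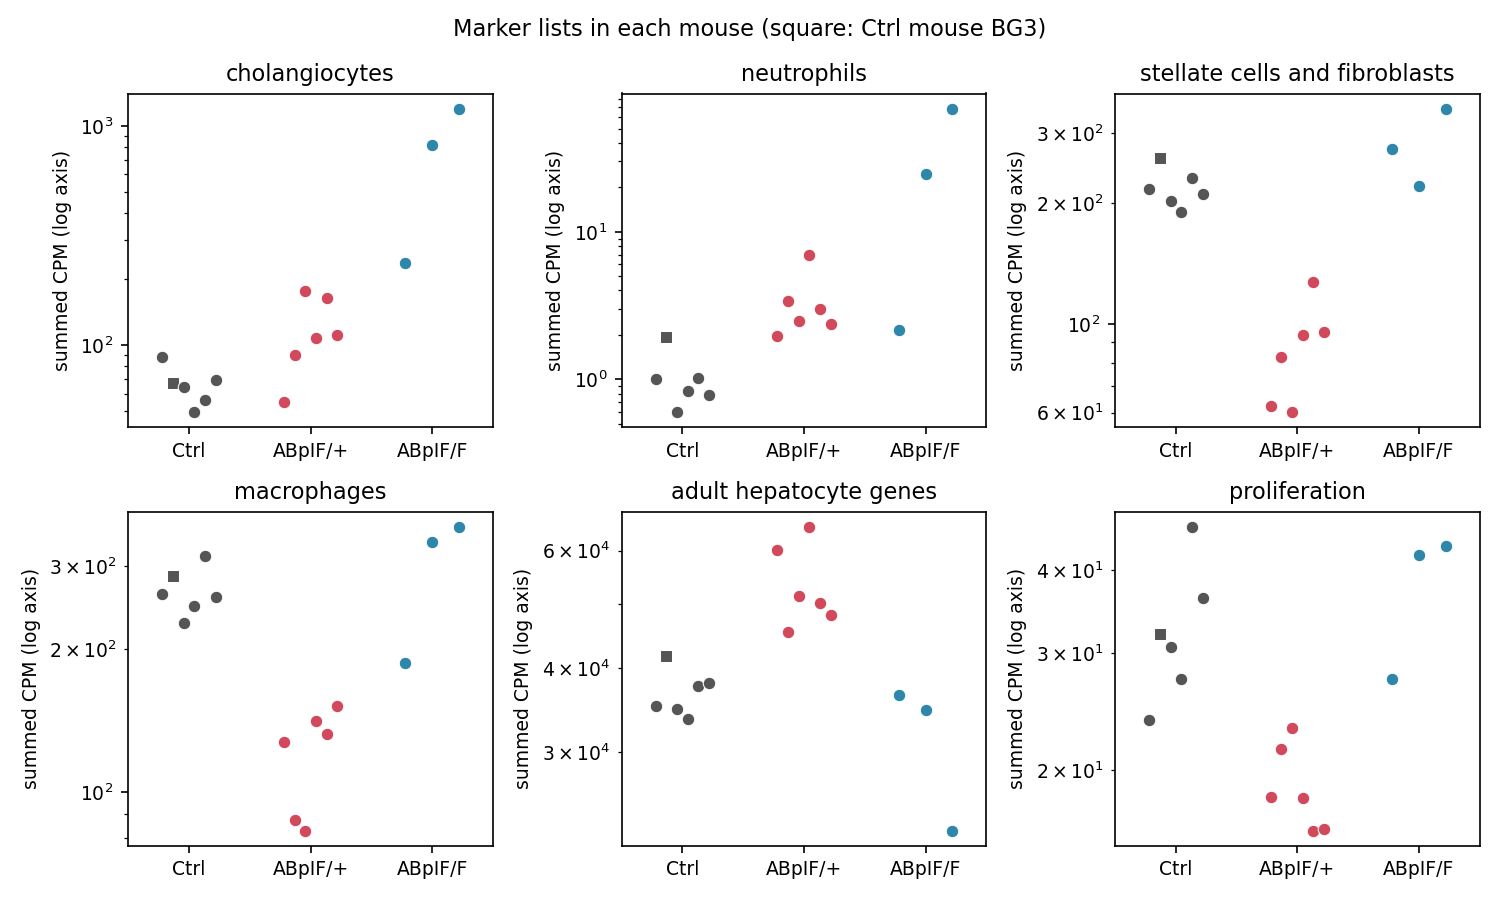
Summed CPM (y axes, log scale) of the markers of 6 lists in each mouse (points) of the 3 groups (x axes), with the Ctrl mouse BG3 as a square. The stellate cell and fibroblast and the macrophage sums are lower in all ABpIF/+ mice than in all Ctrl mice. Among the ABpIF/F mice the cholangiocyte and neutrophil sums are lowest in BG183, at 237 and 2.15 CPM, as are the macrophage and proliferation sums.

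Of 12 proliferation genes, 6 fell and none rose in ABpIF/+ vs Ctrl livers, 0 were called in ABpIF/F vs Ctrl by edgeR or DESeq2 (3 at an unadjusted p under 0.05), and 8 were lower and 1 higher in ABpIF/+ than in ABpIF/F livers. *Top2a*, a topoisomerase of dividing cells, was at 3.49 CPM in Ctrl, 0.211 in ABpIF/+ and 4.18 in ABpIF/F livers. *Gpc3* was thus highest in the group with the lowest *Top2a*. Of the remaining lists, 2 of 6 endothelial and 3 of 7 lymphocyte markers fell and 1 of 6 erythroid markers rose in ABpIF/+ vs Ctrl, and 1, 1 and 0 of them rose and none fell in ABpIF/F vs Ctrl livers. Of 13 clock genes, 2 rose in ABpIF/+ vs Ctrl and 3 fell in ABpIF/F vs Ctrl livers.

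Per kilobase of exon, the order of the members in Ctrl livers was *Hmga1* at 5.22 ± 0.991, *Afp* at 1.17 ± 0.180, *Gpc3* at 0.303 ± 0.164, *Igf2bp2* at 0.204 ± 0.0584 and *Igf2bp3* at 0.102 ± 0.0349 RPKM (SD, n = 6), followed by *Hmga2* at 0.0204, *Igf2bp1* at 0.00221 and *Lin28b* at 0. *Gpc3* and *Igf2bp2* did not differ beyond their spread there. In ABpIF/+ livers *Gpc3* came first at 138 ± 28.8 RPKM, and *Hmga1* at 9.54 ± 2.00 and *Afp* at 8.23 ± 3.64 RPKM were within their spread of each other. In ABpIF/F livers *Gpc3* at 48.5 ± 39.1 and *Afp* at 20.7 ± 16.5 RPKM (SD, n = 3) came before *Hmga1* at 6.60 ± 1.43 RPKM.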

How the data were processed

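Frozen liver was lysed in Trizol, and libraries of polyadenylated RNA were made with a stranded kit and sequenced paired end. The authors aligned reads with HISAT2 to mm10 and counted them per gene with featureCounts 2.0.8, and the deposited values are raw counts. The annotation and strand setting are not given in the sources used here, so overlapping genes on opposite strands may share reads. The 23 samples name 15 mice with 1 count column each, and 5 count columns of a further table, whose names match no sample, were not used. Columns holding the authors' fold changes and p-values were not used either.

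Counts of all 27179 genes (20380 with a read) were fitted over the 3 groups in R 4.3.3 with the quasi-likelihood test of edgeR 4.0.16 (TMM, robust), with Benjamini-Hochberg adjustment. A call needed an adjusted p under 0.01 and a 2-fold change. The standard error is the log2 fold change divided by the square root of F. On simulated counts of the 27179 genes for ABpIF/+ vs Ctrl, 195 of 200 changed genes were recovered with 1 false call. Only genes above 1 CPM in Ctrl were changed, by at least 2 on the log2 scale. The run therefore gives no recovery rate for members under that level, for smaller changes or for the ABpIF/F group. Log2 CPM used a prior count of 2, and RPKM the union of exons in GENCODE M21. The clock score is the mean standardised log2 CPM of clock genes of one phase minus that of genes of the opposite phase. Alternatives were DESeq2 1.42.0, other filters and thresholds, the strain label or clock score as a term, and leaving out each mouse.

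The 8 genes and all lists were chosen with earlier results of these data known. Of each list up to 4 genes could be named, ranked by the size of their log2 fold change in any comparison, if called and at 1 CPM or more in some group, besides those said to be picked otherwise. *Ndn*, *Plagl1*, *Mest*, *Lgr5* and *Krt19* were named beyond this, to show genes of their lists that were lower. The values of 1 listed gene are not reported here. The 3 genes most alike are given for each member with at least 1 CPM. Replicates are single mice, whose number limits the precision. Promoters and microRNAs are from RefSeq (GRCm38.p6), where 7 of the 8 genes had a promoter entry.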

Additional observations from a re-analysis of the deposited data

Results flagged for a closer look

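Within groups of 4 to 10 mice, the 16 sets of member values in Ctrl and ABpIF/+ were searched for a mouse far from the others. *Lin28b* in Ctrl, with 0 reads in every mouse, could not be examined. Chance alone sets apart about 1 in 20 sets of normally distributed values, a rate that does not hold for counts near 0. In 4 sets the lowest or highest mouse stood apart, a count that cannot be set against that rate. *Afp* was 2.79 CPM in the Ctrl mouse BG3, the only Ctrl mouse with the strain label of the mutants, and the gap to the next mouse was 0.669 of the range of the group. *Igf2bp1* had reads in 1 mouse only of each of 2 groups, at 0.128 CPM in the Ctrl mouse malpa458 and 0.116 CPM in the ABpIF/+ mouse BG40, which rest on 4 and 3 reads. A set with reads in 1 mouse only is always flagged. *Hmga2* was 0.256 CPM in the ABpIF/+ mouse BG175, from 8 reads, with a gap of 0.712 of the range. The ABpIF/F group has 3 mice and was not examined in this way.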

How the results depend on the processing

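The calls of *Gpc3* in both comparisons with Ctrl held under every alternative run. The members called numbered 3 in ABpIF/+ vs Ctrl, 2 in ABpIF/F vs Ctrl and 0 in ABpIF/+ vs ABpIF/F. With the strain label as a term both counts against Ctrl were 1, and with the clock score as a covariate the count in ABpIF/F vs Ctrl was 1, in each case *Gpc3*. In ABpIF/+ vs Ctrl the count was 4 at an adjusted p under 0.05 (*Lin28b* added) and with no fold threshold (*Hmga1* added), and 2 when a log2 change of 2 was required (*Igf2bp2* lost). In ABpIF/+ vs ABpIF/F the count was 1 (*Igf2bp2*) at an adjusted p under 0.05 and by DESeq2. Leaving out each mouse gave between 2 and 3 members in ABpIF/+ vs Ctrl. Signs turned, always without a call and the cause was not tested, for *Igf2bp3* in ABpIF/F vs Ctrl (-0.023 on the log2 scale with filterByExpr, which keeps 14596 genes, and between -0.093 and 0.20 leaving out each mouse, negative without malpa387, BG3, malpa454, malpa458, BG175 or BG183) and in ABpIF/+ vs Ctrl (0.0078 with the strain term). They also turned for *Hmga2* in ABpIF/+ vs Ctrl (4.09 with the strain term) and in ABpIF/F vs Ctrl (between -0.22, without BG38, and 1.81 leaving out each mouse), and for *Igf2bp2* in ABpIF/F vs Ctrl (0.35 with the strain term, 0.085 with the clock score, and between -0.20 and 0.062 leaving out each mouse, positive without malpa462). Without BG38 *Gpc3* in ABpIF/+ vs ABpIF/F was 2.31 on the log2 scale (edgeR adjusted p = 0.0105), and without BG183 *Afp* there was -1.76 (edgeR adjusted p = 0.014).

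The other deposited table was not fitted, since its 10 columns named for mice hold the same counts. DESeq2 gave no adjusted p in 5 tests of members. No paired analysis was possible because the replicate numbers only name the mice. The depth limits *Igf2bp1*, *Lin28b* and *Hmga2*, and 3 ABpIF/F mice of unequal level limit the comparisons of that group. Strain label and genotype coincide except in BG3.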
